A study of Homo sapiens with 24 samples.

Results

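COLO320DM is a human colorectal adenocarcinoma cell line that carries extra copies of MYC, and it was grown here as xenograft tumours in mice. The comparison described here is between tumours with the hairpin labelled sh1487 and tumours with the hairpin labelled shNT when no doxycycline was given, so it asks how the lines differ before a hairpin is induced. It uses 12 of the 24 libraries, chosen by their labels alone: the 3 libraries each of shNT without doxycycline, sh1487 without doxycycline, shNT with cDNA and without doxycycline, and sh1487 with cDNA and without doxycycline. Every library is labelled 72 hr, and the diet of the other 12 libraries began at an average tumour size of 150 mm3, with collection on day 3. The pair without cDNA and the pair with cDNA share no library, and only differences present in both pairs are called shared.

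No label gives a target for sh1487 or an identity for the cDNA, nor says how the lines were made, whether each is a clone or a pool, or whether a cDNA line came from the matching line without it. There is 1 line for each hairpin within a pair, so the hairpin and any other property of a line cannot be told apart. Nor do the labels say whether replicates are separate tumours, so the p-values speak to the variation among these libraries alone, and that may be technical. β-catenin, the protein of CTNNB1 and the subject of the series title, is the transcriptional arm of Wnt signalling: when it is stable it enters the nucleus and switches on targets through TCF factors. In the intestine this pathway keeps stem cells dividing, and in most colorectal cancers it is held on. Hairpins under a doxycycline-inducible promoter are meant to be silent without the drug, which makes the tumours without it the baseline of such a study.

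The 12 libraries held 45490049 to 80202279 recovered reads, and 3 reads correspond to 0.0381 to 0.0676 CPM, the reads of a gene scaled to an effective library size. Such a floor covers counting error only. Of 11 colorectal markers, KRT19 and CDX1 are not analysed here, VIL1 lay between 0.0143 and 0.132 CPM and CDH1 at 0.0589 to 0.385 CPM, whereas CDX2, the transcription factor of intestinal identity, lay between 1497 and 2101 CPM. The tumours are bulk samples, in which fewer cells of a type and less RNA per cell cannot be told apart. Across the 12 libraries the first principal component held 86.8% of the variance and separated the hairpins, and the second held 5.44%. Pearson correlations of log2 values across genes were 0.992 to 0.999 within a group, 0.987 to 0.997 between the lines of 1 hairpin without and with cDNA, and 0.933 to 0.948 between hairpins. Libraries therefore resembled those of the same hairpin with the other cDNA status more than any library of the other hairpin.

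CTNNB1 (ENSG00000168036, chromosome 3, 41194741 to 41260096, plus strand, GRCh38) was read first. Without cDNA it stood at 257, 261 and 251 CPM in the shNT line and at 215, 230 and 234 CPM in the sh1487 line. With cDNA it stood at 701, 746 and 525 CPM with shNT and at 527, 536 and 460 CPM with sh1487. The first pair does not overlap, and in the second the lowest shNT library lies among the sh1487 values. The log2 difference, sh1487 minus shNT, was −0.18 ± 0.05 (SE) without cDNA (limma adjusted p = 0.00735) and −0.36 ± 0.13 with cDNA (limma adjusted p = 0.0302). For shNT and sh1487, mean CTNNB1 was 257 and 226 CPM without cDNA and 658 and 507 CPM with it. How many of the reads with cDNA came from the cDNA was not tested. The second difference may thus not be that of the gene itself, nor comparable with that of its neighbours. The window of 40 neighbouring genes that holds CTNNB1 had medians of −0.25 and −0.33, and 19 of its genes were lower in both pairs. Both calls were fragile: with 1 spread shared over the 12 libraries the first had an adjusted p of 0.132, and scaling by library size alone ended the second. So did leaving out shNT replicate 1 or 2, or sh1487 replicate 1 or 3, with cDNA, which gave differences of −0.26 to −0.39.

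Most genes differed between the lines. Of 13339 genes tested, 9934 (74.5%; 36.5% higher and 37.9% lower with sh1487) were called without cDNA at a limma adjusted p under 0.05. With cDNA 8467 were called (63.5%; 31.3% higher and 32.2% lower). In all, 53.1% were called in both pairs with the same direction. In both pairs 3364 genes were higher with sh1487 (25.2% of those tested) and 3713 were lower (27.8%), whereas 181 (1.36%) were called in opposite directions. Of the genes called in both pairs, 97.5% had the same direction. At 2-fold or more, a log2 difference of at least 1 on the log2(CPM + 1) scale, 441 genes were higher (3.31%) and 439 lower (3.29%) in both pairs. In the pair without cDNA alone the 2-fold shares were 4.32% higher and 5.23% lower, and with cDNA 4.18% and 4.08%. The shared 880 genes (6.6%) make up 69.1% of the 2-fold list without cDNA and 79.9% of that with cDNA. The median difference over all genes was −0.00 without and 0.01 with cDNA, and the median absolute difference was 0.32 and 0.31. That scale understates the change of genes at low levels, and the 2-fold counts depend on the pseudocount.

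**Figure D1:**
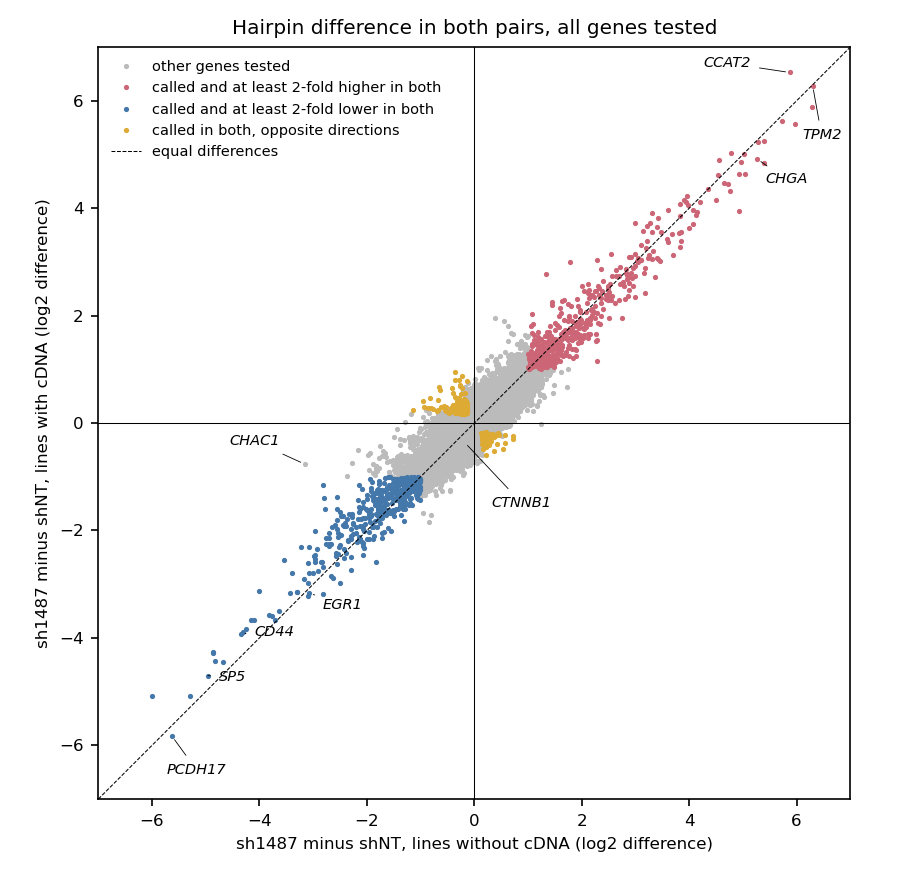
Log2 difference of sh1487 minus shNT for 13339 genes, in the lines without cDNA (x axis) and with cDNA (y axis), on the log2(CPM + 1) scale. Red and blue mark the 441 and 439 genes called and at least 2-fold higher or lower in both pairs, yellow the 181 called in opposite directions, and most points lie along the dashed line of equal differences.

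The 441 and 439 genes were then read in the 12 libraries with doxycycline, which took no part in choosing them. There, 315 of the 441 (71.4%) were again at least 2-fold higher with sh1487 in both pairs, against 5.27% of all genes tested, and for 403 (91.4%) no sh1487 library overlapped a shNT library of its pair, against 25.9% of all genes. Of the 439 lower genes, 273 (62.2%) were again at least 2-fold lower, against 5.06% of all genes, and 378 (86.1%) did not overlap, against 28.6%. Most of these 880 differences were thus present on doxycycline with the same direction, and the smaller shared differences were not followed there.

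The 12 leading higher genes include several that are known from neurons and neuroendocrine cells. TPM2 (chromosome 9, 35681992 to 35690121), which encodes the actin-binding β-tropomyosin, stood at 0.234, 0.399 and 0.256 CPM with shNT and at 103, 99.6 and 99.6 CPM with sh1487; with cDNA it stood at 0.442, 0.405 and 0.263 against 106, 97.9 and 112 CPM. Every shNT library was below 0.5 CPM and every sh1487 library near 100. The log2 difference was 6.30 ± 0.07 (limma adjusted p = 2.16e-17) and 6.28 ± 0.08 (limma adjusted p = 6.44e-11). UNC13A, a priming factor of synaptic vesicles, differed by 6.29 and 5.89, NMNAT2, an NAD-synthesizing enzyme of axons, by 5.96 and 5.57, and SEZ6, a membrane protein of neurons, by 5.27 and 5.24. SCRT1, a neuronal repressor of the Snail family, differed by 4.96 and 4.85, and PAX5, the transcription factor of B-cell identity, by 5.39 and 4.85. XKR7 of the XK family, with 5.40 and 5.26, and CPED1, with 4.77 and 5.03, complete the largest coding differences outside the secretory group.

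CCAT2, a long non-coding RNA of the gene desert upstream of MYC, stood at 11.1, 10.8 and 9.67 CPM with shNT and 646, 652 and 722 CPM with sh1487, and at 9.07, 12.2 and 7.43 against 939, 912 and 1019 CPM with cDNA. Its annotated span shares bases with PCAT1 and POU5F1B on the same strand and with CASC8 on the other, and the sources used here do not say how reads of overlapping genes were assigned. POU5F1B itself went the other way, from 285 to 70.8 CPM without and from 307 to 114 CPM with cDNA (log2 difference −1.99 and −1.42). MYC did not pass in either pair: its means were 3326 and 3700 CPM without cDNA (log2 difference 0.16, limma adjusted p = 0.0810) and 3014 and 3257 CPM with cDNA (0.13, limma adjusted p = 0.463).

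**Figure D2:**
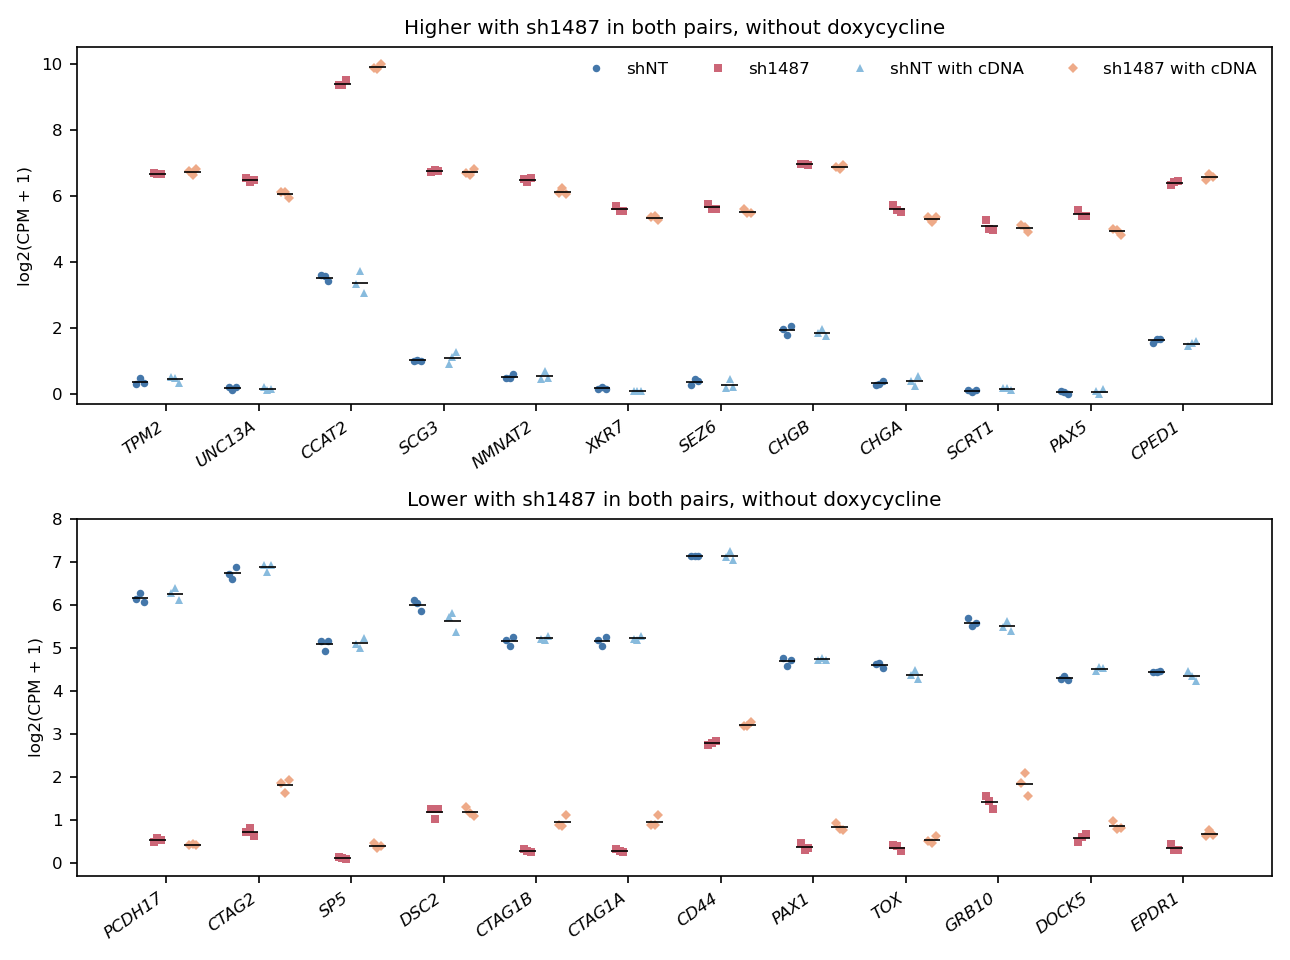
Level of the 12 genes with the largest shared difference in each direction, as log2(CPM + 1) per library, in 4 groups of 3 libraries without doxycycline, with the group mean as a black bar. In each gene the sh1487 libraries lie apart from the shNT libraries in both pairs, and the lines of 1 hairpin without and with cDNA lie close together.

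Neuroendocrine cells of the gut store peptide hormones in dense-core granules, which are built around chromogranins and secretogranins, and they share synaptic vesicle proteins with neurons. CHGA, which encodes chromogranin A, stood at 0.208, 0.243 and 0.327 CPM with shNT and 51.7, 46.6 and 44.5 CPM with sh1487, and with cDNA at 0.336, 0.182 and 0.460 against 40.5, 35.7 and 40.3 CPM. CHGB, of chromogranin B, stood at 2.90, 2.44 and 3.17 against 125, 123 and 121 CPM, and with cDNA at 2.59, 2.94 and 2.37 against 115, 112 and 121 CPM. All 6 sh1487 libraries were above all 6 shNT libraries for both genes, and within each pair this was a condition of naming them. The log2 differences were 5.27 ± 0.07 and 4.91 ± 0.10 for CHGA (limma adjusted p = 2.17e-16 and 2.21e-10) and 5.02 ± 0.07 and 5.01 ± 0.08 for CHGB (limma adjusted p = 2.19e-16 and 7.66e-11).

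Of 16 neuroendocrine and neuronal genes tested, 9 were higher in both pairs and 2 lower, against 25.2% and 27.8% of all genes, with median differences of 0.82 and 1.08 against −0.00 and 0.01 over all genes. The 9 include SCG3, a sorting receptor of granules (1.04 to 106 CPM and 1.15 to 104 CPM), the synaptic vesicle protein SYP (8.11 to 81.8 and 8.50 to 69.3 CPM), the fusion protein SNAP25 (67.8 to 271 and 69.2 to 214 CPM) and the calcium buffer CALB1 (6.43 to 224 and 9.44 to 159 CPM). STMN2, a regulator of microtubules in growing axons, stood between 14.7 and 17.2 CPM in the 6 sh1487 libraries and at or below 0.0520 CPM in the 6 shNT libraries. The list did not move as a block. NCAM1, a neural adhesion molecule used as a neuroendocrine marker, was lower with sh1487 (17.6 to 0.595 and 11.6 to 1.15 CPM), as was ENO2, and UCHL1 was called in opposite directions (log2 difference 0.29 and −0.20). INSM1, a transcription factor of this lineage, is not analysed here.

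Promoters of 3 genes of the group are shown because 2 short motifs known from such genes occur in them. The sequences are from RefSeq, build GRCh38.p14, and give the 250 bases before the start of the gene in its own direction; capitals mark the cAMP response element TGACGTCA in all 3 and, nearer to the 5′ end in SYN1, the core of RE1, the element bound by REST; both strands were searched. CHGA lies at chr14:92922900-92923149 on the plus strand, VGF at chr7:101165570-101165819 and SYN1 at chrX:47619858-47620107 on the minus strand.
CHGA: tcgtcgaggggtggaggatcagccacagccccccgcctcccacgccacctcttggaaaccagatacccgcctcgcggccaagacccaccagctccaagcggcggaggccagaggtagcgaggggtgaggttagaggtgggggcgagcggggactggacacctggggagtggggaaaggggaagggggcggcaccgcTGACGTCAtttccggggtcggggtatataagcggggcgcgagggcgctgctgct
VGF: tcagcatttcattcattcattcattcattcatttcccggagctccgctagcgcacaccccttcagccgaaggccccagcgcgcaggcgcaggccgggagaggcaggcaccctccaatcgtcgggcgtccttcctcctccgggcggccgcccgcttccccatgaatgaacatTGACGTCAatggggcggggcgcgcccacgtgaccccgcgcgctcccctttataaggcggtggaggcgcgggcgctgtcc
SYN1: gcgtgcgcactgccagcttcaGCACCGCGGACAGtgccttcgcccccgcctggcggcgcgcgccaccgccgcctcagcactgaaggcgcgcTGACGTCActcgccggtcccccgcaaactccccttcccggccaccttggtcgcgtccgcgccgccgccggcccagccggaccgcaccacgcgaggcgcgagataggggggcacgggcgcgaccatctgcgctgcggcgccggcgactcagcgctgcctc
The response element is at positions −54 to −47 in CHGA, −79 to −72 in VGF and −159 to −152 in SYN1, and the REST core at −229 to −217, counted from the gene start.

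VGF, which encodes a granin-like peptide precursor, stood at 1.68, 1.75 and 2.13 against 104, 90.0 and 84.8 CPM without cDNA and at 2.44, 2.49 and 3.00 against 98.6, 81.9 and 87.6 CPM with cDNA. SYN1, of the synaptic vesicle coat protein synapsin I, stood at 0.0390, 0.114 and 0.128 against 8.77, 5.98 and 6.68 CPM, and with cDNA at 0.0610, 0.101 and 0.175 against 5.40, 4.85 and 5.29 CPM. Both genes were chosen after their values were seen, and neither overlaps between hairpins. The response element occurs in 10 of 340 promoters of the 2-fold higher genes (2.94%), 8 of 303 of the 2-fold lower genes (2.64%) and 3.46% of 10069 tested genes with a promoter in the table, so its share among the higher genes lies below that of all tested genes. The REST core occurs in 3 of the 340 (SYN1, LHX3 and SCAMP5), in 1 of the 303 and in 6 of the 10069. A match is a description of letters and not a binding site.

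REST, the repressor that keeps neuronal genes silent in other tissues, was read after the neuronal values were seen. It stood at 68.2, 68.4 and 62.0 CPM with shNT and 48.8, 47.9 and 47.4 CPM with sh1487, and with cDNA at 60.5, 70.3 and 53.7 against 45.1, 47.8 and 46.1 CPM. The groups do not overlap in either pair, and the log2 difference was −0.45 ± 0.06 (limma adjusted p = 4.88e-06) and −0.39 ± 0.09 (limma adjusted p = 0.00431). The window of 40 genes around REST had medians of −0.33 and −0.27, and 21 of its genes were lower in both pairs. SCAMP5, a secretory carrier protein whose promoter holds the core, had log2 differences of 2.25 and 2.18.

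Among genes at or below 3 reads in every library of one hairpin and at 1 CPM or more in every library of the other, 10 were seen with sh1487 and 2 with shNT. The 10 include SYT4, a synaptotagmin (17.7 to 21.4 CPM), NRSN1, a neuronal vesicle protein (10.2 to 12.5 CPM), SCRT2, a relative of SCRT1 (7.51 to 9.40 CPM), the protocadherin PCDH18 (8.41 to 12.8 CPM) and the cancer-testis genes XAGE1A and XAGE1B, near-identical copies whose reads cannot be assigned apart. The 2 seen with shNT are AGBL2 and the S100 family member S100A10, at 1.39 to 2.59 and 1.52 to 1.95 CPM. With limits of 5 CPM and 0.5 CPM the numbers were 40 genes for sh1487 and 6 for shNT. These lists were not tested as groups.

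The 12 leading lower genes include adhesion molecules, developmental factors and cancer-testis antigens. PCDH17, a protocadherin, stood at 69.3, 76.6 and 65.9 CPM with shNT and 0.401, 0.496 and 0.442 CPM with sh1487, and with cDNA at 76.2, 82.8 and 67.7 against 0.330, 0.353 and 0.338 CPM (log2 difference −5.63 ± 0.07 and −5.83 ± 0.09, limma adjusted p = 9.11e-17 and 7.66e-11). No sh1487 library reached 0.5 CPM. DSC2, a desmosomal cadherin, differed by −4.83 and −4.44, and CD44, the hyaluronan receptor, by −4.35 and −3.92: its shNT libraries lay at 139, 139 and 140 CPM and, with cDNA, 137, 151 and 130 CPM, against 5.71, 5.89 and 6.12 CPM and 8.08, 8.13 and 8.61 CPM. CD44 was therefore 23.6-fold and 16.9-fold higher with shNT. CTAG2 differed by −6.01 and −5.07, and CTAG1A and CTAG1B, copies that cannot be told apart by short reads, by −4.87 and −4.27 each. PAX1 and TOX, transcription factors of development and of T cells, differed by −4.31 and −3.90 and by −4.24 and −3.84, the adaptor GRB10 by −4.16 and −3.67, the Rac exchange factor DOCK5 by −3.71 and −3.66, and EPDR1 by −4.09 and −3.66.

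Wnt targets went both ways, more of them lower than higher. SP5, a direct β-catenin target that acts as a feedback repressor, stood at 34.4, 29.6 and 34.9 CPM with shNT and 0.104, 0.0890 and 0.0737 CPM with sh1487, and at 33.0, 30.9 and 36.4 against 0.369, 0.279 and 0.315 CPM with cDNA. No sh1487 library reached 0.5 CPM, and the log2 differences were −4.96 ± 0.08 and −4.70 ± 0.08 (limma adjusted p = 4.24e-16 and 1.41e-10). AXIN2, a widely used readout of the pathway that was chosen after its values were seen, was lower by far less: 384, 352 and 367 against 272, 251 and 258 CPM, and 350, 376 and 375 against 287, 286 and 289 CPM with cDNA (−0.49 and −0.35, limma adjusted p = 1.67e-06 and 9.07e-04). LGR5, the receptor that marks intestinal stem cells, was higher: 6.15, 6.48 and 6.01 against 18.7, 18.8 and 17.9 CPM, and 6.86, 7.35 and 5.75 against 20.4, 22.1 and 20.0 CPM (1.43 and 1.51, limma adjusted p = 5.72e-11 and 5.36e-07).

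Of 40 Wnt/β-catenin targets tested, 19 were lower in both pairs, 10 higher and 11 not shared, with medians of −0.15 and −0.23. Of all genes 27.8% were lower and 25.2% higher, so the share of higher targets was at the background and that of lower targets above it. At 2-fold or more 7 targets were lower and 3 higher, against 3.29% and 3.31% of all genes. Besides SP5, the lower targets included CCND1, which encodes cyclin D1 (38.6 to 8.41 and 38.4 to 6.20 CPM), SOX9 (8.71 to 2.26 and 8.16 to 2.65 CPM), TIAM1 and the Wnt inhibitor WIF1. The higher targets included the ephrin receptor EPHB2 (7.77 to 39.1 and 5.53 to 33.1 CPM), ASCL2 (12.6 to 22.6 and 9.72 to 25.1 CPM), TNFRSF19 and AMBN. Of 16 intestinal stem cell genes, which share 9 members with the targets, 7 were higher and 6 lower. Of 39 pathway components, 10 were higher and 12 lower, shares near those of all genes, with the corepressor TLE2 (45.8 to 8.0 and 44.0 to 7.39 CPM) and the ligand WNT11 lower by at least 2-fold in both pairs. Neither of these lists stood on 1 side.

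Immediate-early genes, which answer growth factor and stress signals within minutes, were lower with sh1487. EGR1, a zinc-finger transcription factor of this class, stood at 431, 383 and 394 CPM with shNT and 51.9, 43.9 and 45.3 CPM with sh1487, and at 290, 321 and 344 against 34.6, 36.1 and 32.9 CPM with cDNA (−3.07 ± 0.07 and −3.16 ± 0.08, limma adjusted p = 2.32e-14 and 6.51e-10). FOS stood at 78.5, 80.1 and 85.0 against 12.2, 12.2 and 12.6 CPM and at 85.0, 79.8 and 96.1 against 11.2, 10.8 and 10.8 CPM. Neither gene had overlapping groups. Of 26 tested, 19 were lower in both pairs and 1, KLF10, higher, against 27.8% and 25.2% of all genes, with medians of −0.77 and −0.88. By at least 2-fold 10 were lower, against 3.29% of all genes, among them FOSB, JUNB, IER2, DUSP6 and KLF2. JUND, NR4A1 and SRF did not pass in both. The promoter of EGR1 is shown because it holds a CArG box, the site class of SRF, marked in capitals, at positions −105 to −96 of chr5:138465229-138465478, plus strand, GRCh38.p14.
EGR1: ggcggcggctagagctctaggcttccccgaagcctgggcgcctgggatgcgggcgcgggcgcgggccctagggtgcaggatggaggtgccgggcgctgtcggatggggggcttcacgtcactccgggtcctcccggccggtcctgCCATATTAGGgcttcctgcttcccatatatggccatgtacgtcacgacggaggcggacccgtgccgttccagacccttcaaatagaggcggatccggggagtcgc
The capital letters, on either strand, occur in 11 of the 35116 promoters in the table and in no other promoter of the 2-fold lower genes. Only these exact letters were searched, so other sequences of this site class, in EGR1 or elsewhere, are neither marked nor counted.

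HOX genes, which set position along the body axis and in the gut mark its hind part, were lower in 23 of 31 cases and higher in 5, against 27.8% and 25.2% of all genes (medians −0.84 and −0.82). HOXB7 stood at 19.3, 18.1 and 20.7 CPM with shNT and 1.34, 1.06 and 1.36 CPM with sh1487, and with cDNA at 17.1, 16.6 and 17.2 against 1.42, 1.26 and 1.55 CPM. HOXD1 and HOXB9 were lower by 2.67 and 2.96 on the log2 scale without cDNA and differed by −2.85 and −2.45 with it. The genes divided by cluster. All tested HOXA, HOXB and, except HOXD4, HOXD genes were lower in both pairs, whereas all 5 higher genes belong to HOXC (HOXC4, HOXC8, HOXC9, HOXC12 and HOXC13), in which HOXC10 was lower. Of the 31 genes, 9 lie in stretches of the genome with medians of at most −0.4 in both pairs, described with the chromosomes. Stretches that were lower by less are not in this count. Taken relative to the median of their surroundings, which includes the HOX genes themselves, the HOX medians were −0.62 and −0.55.

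Other groups moved in part, and their counts are to be read against the 25.2% of all genes that were higher and the 27.8% that were lower in both pairs. Among epithelial genes KRT8, a keratin of simple epithelia, stood at 7.24, 6.99 and 7.20 against 150, 148 and 146 CPM. With cDNA it stood at 6.94, 6.84 and 7.39 against 142, 136 and 140 CPM. KRT20 was also higher (3.02 to 9.26 and 2.24 to 6.98 CPM), while the enterocyte genes FABP2 and CA2 were lower. These 4 belong to the intestinal differentiation list, in which 6 genes were higher and 5 lower of 13. Of 15 genes of MHC class I presentation 7 were lower and 1 higher, including HLA-B (−1.79 and −1.54), HLA-C and TAPBP. Interferon-stimulated genes were mixed, 8 higher and 11 lower of 24, from HERC5 (0.308 to 18.0 CPM and 0.300 to 14.2 CPM) to PARP14 (33.7 to 1.15 and 28.2 to 2.34 CPM). Of 19 cadherin, catenin and junction genes 10 were lower and 3 higher, with the neural α-catenin CTNNA2 among the higher. Of 13 genes of the RNA interference machinery, on which hairpins depend, 7 were higher, up to AGO2 (0.81 and 0.55), which cuts the target RNA, and 1, TNRC6C, was lower (−0.87 and −0.77). Among 40 MYC and ribosome biogenesis genes 15 were higher, a share above that of all genes, and 5 lower, a share below it. Without cDNA alone 32 of the 40 were higher, against 36.5% of all genes, and with cDNA 15, against 31.3%. For 11 the difference between the pairs was called lower with cDNA and for 1 higher, against 8.33% and 11.7% of all genes. Among 38 mitosis genes 4 were higher and 6 lower, both shares below those of all genes.

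The remaining lists are given by their counts in both pairs, beside the same 25.2% higher and 27.8% lower of all genes, and several lie near or below these shares. The cytosolic tRNA synthetases had 4 higher and 8 lower of 20, the unfolded protein response 3 and 6 of 21, hypoxia and glycolysis 5 and 8 of 31, nuclear oxidative phosphorylation 4 and 6 of 31, and p53 targets 5 and 9 of 25. YAP, SRF and actin genes had 5 higher and 8 lower of 19, epithelial-mesenchymal transition 1 and 2 of 11, metallothioneins and zinc transport 4 and 9 of 22, and intestinal differentiation genes 6 and 5 of 13. None of the 13 mitochondrially encoded mRNAs was higher in both pairs and 2 were lower.

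**Figure D3:**
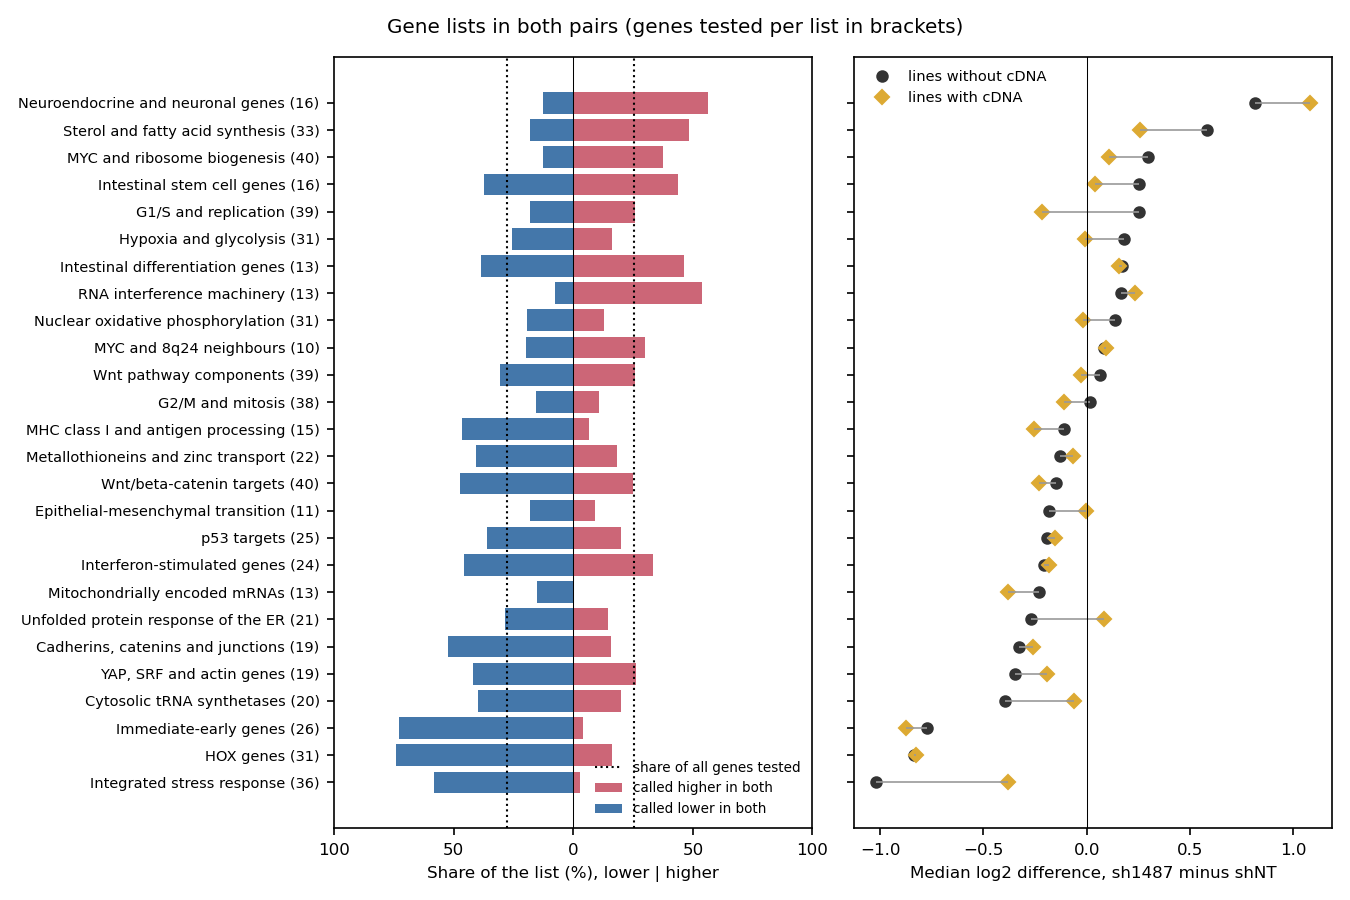
Left, share of each list called higher (red, to the right) or lower (blue, to the left) in both pairs, for lists with at least 10 genes tested; dotted lines give the shares of all genes, 25.2% and 27.8%. Right, median log2 difference of each list without cDNA (black) and with cDNA (yellow): neuroendocrine genes lie highest, HOX and immediate-early genes lie low in both pairs, and the stress response lies low mainly without cDNA.

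Markers of cells that a mouse tumour could hold were read in the human table. The endothelial markers PECAM1, CDH5, VWF, KDR and TEK are not analysed here. Of 4 further endothelial genes tested, 1 was higher in both pairs and 1 lower, against 25.2% and 27.8% of all genes. FLT1, a VEGF receptor, was higher (0.625 to 2.56 and 0.401 to 2.09 CPM) and EGFL7 lower (48.4 to 32.0 and 53.6 to 32.2 CPM). ERG and ENG did not pass in either pair. The summed level of 5 measured fibroblast and pericyte markers was 105 to 114 CPM with shNT and 64.2 to 68.2 CPM with sh1487, and 103 to 123 against 64.3 to 77.1 CPM with cDNA; COL1A2 and DCN are not analysed here. The longer list of 8 fibroblast and pericyte genes tested did not go 1 way. In both pairs 5 were lower and 3 higher, against 27.8% and 25.2% of all genes. The 3 are the collagen gene COL5A1 (3.24 to 32.6 and 3.83 to 23.6 CPM), the protease gene FAP (0.128 to 3.40 and 0.0997 to 3.72 CPM) and MCAM. The 3 measured leukocyte and macrophage markers summed to 35.3 to 39.8 against 44.2 to 48.4 CPM and 33.1 to 36.8 against 54.9 to 59.1 CPM, nearly all of it PTPRC. HBA1 and HBA2, near-identical copies, summed to 1.11 to 1.61 against 12.7 to 13.4 CPM and to 1.65 to 2.51 against 9.02 to 10.4 CPM, while HBB and ALAS2 are not analysed here. The sums of the measured fibroblast, leukocyte and haemoglobin markers differ between the hairpins without overlap in both pairs, and their part in the other differences was not tested.

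Differences ran along chromosomes. The genes tested were cut, in genome order, into 324 windows of 40 genes, with up to 75 in the last window of a chromosome, and the window medians of the 2 pairs had the same sign in 297 windows, with a Pearson correlation of 0.959 across windows; windows are not independent replicates. In 9 windows both medians were at least 0.4 and in 22 at most −0.4, against medians of 0.06 and 0.07 over all windows. The highest were the first 3 windows of chromosome X, from 276322 to 47659161 (GRCh38), with medians of 0.88, 0.97 and 0.90 without cDNA and 0.89, 0.88 and 0.89 with cDNA; in the second, 36 of 40 genes were higher in both pairs and none was lower. Windows on the rest of chromosome X were not among the 9.

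On chromosome 13, 67.2% of 241 genes were higher in both pairs, against 25.2% of all genes, and 5 of its windows were among the 9; the last is the end of chromosome 12, from 123457641 (0.66 and 0.46). The lowest window was the end of chromosome 22, from 46150521 to 50783663, where 43 of 45 genes were lower in both pairs (−0.71 and −0.78). Of the genes on chromosome 19, 55.8% were lower in both pairs, on chromosome 11 54.2%, on chromosome 14 52.0% and on chromosome 8 51.4%, against 27.8% of all genes. The 9 windows from the start of chromosome 19 to 18389176 were all among the 22, as were 6 neighbouring windows of chromosome 11 from 36487027 to 67469272. One more lies on chromosome 2, from 173075435 to 178830802, and holds HOXD.

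The 2-fold genes lay more often in the 22 low and 9 high windows than all genes did. Those windows were picked by medians of the same differences, and each gene counts in its own window. Part of this excess was therefore set in advance. Of the 439 lower genes, 437 lie in a window and 96 of these (22.0%) in one of the 22 low windows, which hold 6.65% of all genes in windows; of the 441 higher genes, 59 (13.4%) lie in the 9 high windows, which hold 2.74%. The others lie elsewhere, and some leading genes go against their surroundings. UNC13A, higher by 6.29, lies in a window of chromosome 19 with medians of −0.49 and −0.61, and PCDH17, lower by 5.63, in a window of chromosome 13 with medians of 0.52 and 0.54. Relative to their windows the neuroendocrine list had medians of 0.94 and 1.20 and the immediate-early list of −0.90 and −0.96. The files hold RNA, so what the windows share beyond position was not tested.

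**Figure D4:**
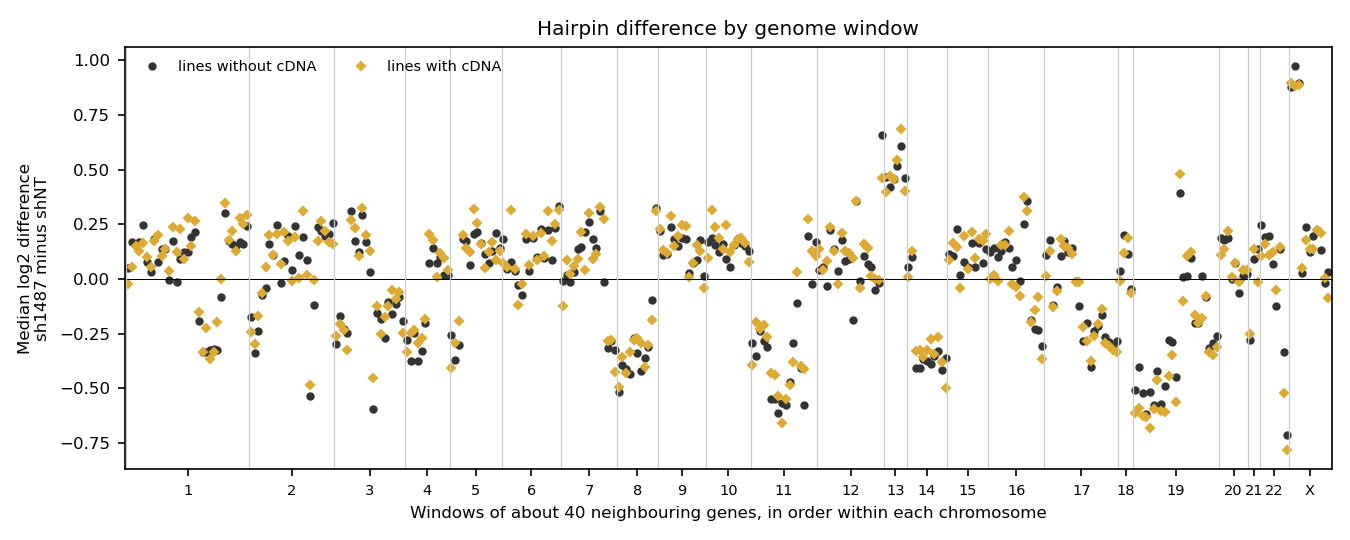
Median log2 difference of sh1487 minus shNT in 324 windows of neighbouring genes, in order along chromosomes 1 to 22 and X, without cDNA (black) and with cDNA (yellow). Both pairs follow the same steps: the first windows of X and those of chromosome 13 are high, and many windows of chromosomes 11, 14 and 19 and the end of 22 are low.

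The pairs also differed from each other. For 2675 genes (20.1%) the hairpin difference with cDNA was not that without it (limma interaction over 12 libraries), 1564 being higher with cDNA and 1111 lower; 54 (0.405%) differed by at least 2-fold. Among the lists, the integrated stress response had the most called differences. It is the programme that ATF4 switches on when amino acids run short or protein folding fails. Without cDNA, 34 of its 36 genes tested were lower with sh1487 (median −1.02), against 37.9% of all genes. With cDNA 21 were lower and 7 higher (median −0.38), against 32.2% and 31.3%. For 33 of the 36 the difference between the pairs was called, each towards a higher value with cDNA, against 11.7% of all genes. In both pairs 21 genes were lower, against 27.8% of all genes.

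CHAC1, a glutathione-degrading enzyme and ATF4 target chosen after its values were seen, stood at 33.9, 32.7 and 37.5 CPM with shNT and 2.99, 2.80 and 3.18 CPM with sh1487, but at 37.1, 34.6 and 43.1 against 21.6, 21.8 and 22.7 CPM with cDNA. The shNT lines had similar levels, and the sh1487 lines did not. Its log2 differences were −3.16 and −0.76, and they differed by 2.4 (limma adjusted p = 3.93e-08). ASNS, the asparagine synthetase, likewise went from 226 to 58.1 CPM without and from 222 to 151 CPM with cDNA (−1.94 and −0.56). ATF4 itself was lower without cDNA (717 to 484 CPM) and higher with it (630 to 784 CPM), and ATF5, CEBPG and HERPUD1 were also called in opposite directions.

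**Figure D5:**
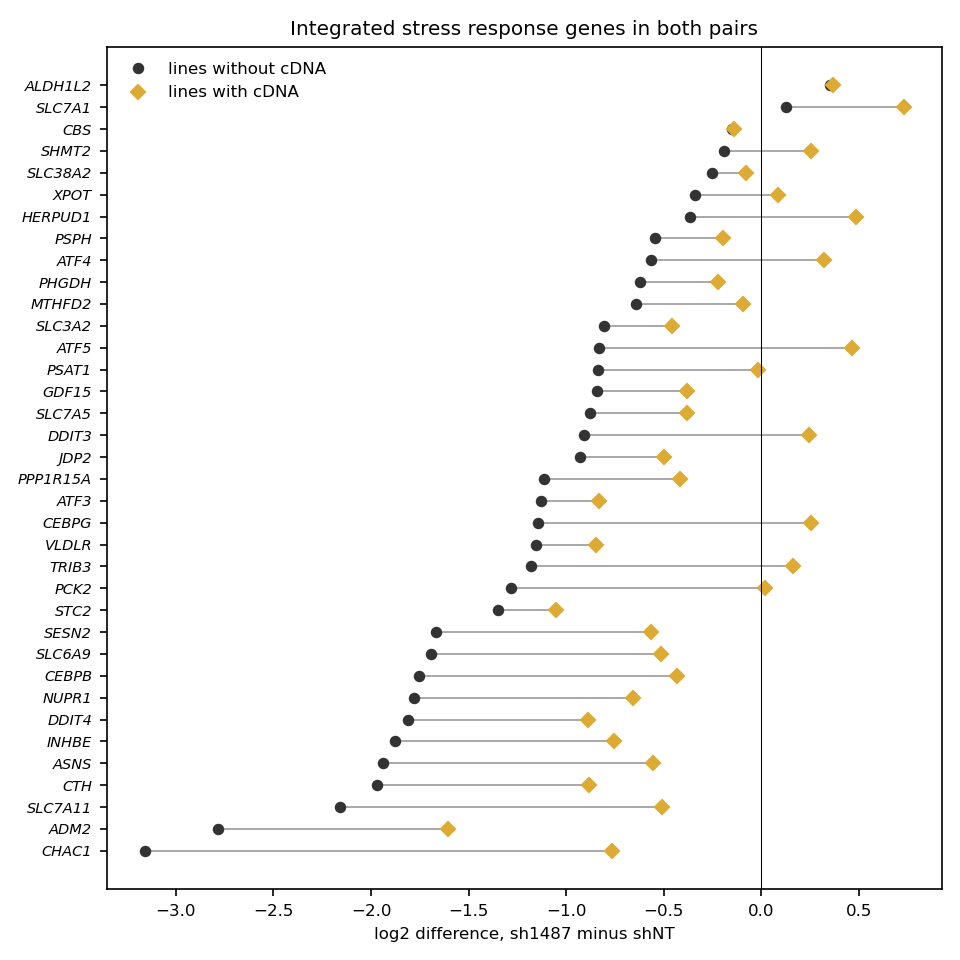
Log2 difference of sh1487 minus shNT for the 36 integrated stress response genes tested, without cDNA (black circles) and with cDNA (yellow diamonds), joined by a line per gene and ordered by the first. In 33 genes the difference between the pairs was called, and each of these lies further right with cDNA.

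Called differences in sterol and fatty acid synthesis and in replication were all towards lower values with cDNA. Of 33 sterol and fatty acid genes 16 were higher and 6 lower in both pairs, with medians of 0.58 and 0.26, and for 22 the difference was called lower with cDNA, against 8.33% of all genes; HMGCS1, an early enzyme of cholesterol synthesis, went from 124 to 344 CPM without cDNA and from 161 to 235 CPM with it. Of 39 G1/S and replication genes, 21 were higher and 7 lower without cDNA (median 0.25), against 36.5% and 37.9% of all genes. With cDNA 11 were higher and 21 lower (median −0.21), against 31.3% and 32.2%, and for 27 the difference was called lower with cDNA.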

How the data were processed

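Per the labels' protocols, TruSeq stranded mRNA libraries of poly(A) RNA were read on the NovaSeq S4 platform. The submitters' processing notes list GRCh38 as the build and, with no roles given, the tools edgeR (4.0.2), featureCounts, STAR (2.7.7a), Subread (2.4.2) and Trimmomatic (0.39). The deposited table holds a signal in CPM, which the authors scaled to an effective library size: dividing by the worth of 1 read gave whole reads for 100% of values (tolerance 0.001). The design allowed for counts or CPM; as the table holds CPM, limma was the main test and count tests on recovered reads were alternatives. Of 14119 gene IDs, 14106 are in GENCODE 29, which gave positions.

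A gene was tested where 3 or more of the 12 libraries reached 1 CPM (13339; 780 removed). Each pair was fitted on its own 6 libraries, log2(CPM + 1), with limma 3.58.1 (trend) in R 4.3.3, and the difference between pairs on the 12 libraries with 4 group means; p was adjusted by the Benjamini-Hochberg method over all genes tested, called under 0.05. Every adjusted p in the text is from these fits, except those given for CTNNB1 with 12 or 24 libraries in 1 fit. The members, 30 lists and rule for naming genes were chosen with earlier results of these data known: CTNNB1, the 12 largest shared differences each way without overlap at a mean of at least 1 CPM (no clone, antisense, LINC or pseudogene names), up to 4 per list, and 8 genes of opposite direction. REST, SYN1, MYC, AXIN2, CHAC1, ASNS, VGF and SCAMP5 were added after their values were seen.

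Alternatives were other scalings, the recovered reads tested with DESeq2 1.42.0, edgeR 4.0.16 or limma-voom, a pseudocount of 0.1 or 5, other filters, wider fits, a replicate block and each library left out. On simulated data over 13339 genes with 200 changed, the test in both pairs recovered 97.0% of genes changed 2-fold and 88.1% of those changed 1.5-fold, with 0 false calls among 13139 unchanged genes; for the difference between pairs it recovered 95.5% and 77.6%, with 12 false calls. The simulated libraries were drawn independently and few genes changed, unlike these data, in which most genes were called. The simulated false calls therefore do not give the error rate of the calls made here. No 2 replicates agreed within sampling noise (chi-square per degree of freedom of at least 6.65).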

Additional observations from a re-analysis of the deposited data

Results flagged for a closer look

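For 11 named genes the hairpin difference itself differed between the pairs, by the limma interaction test at an adjusted p under 0.05 and by at least 1 on the log2 scale (with cDNA minus without). The stress response and amino acid genes were higher with cDNA: CHAC1 by 2.4, ASNS by 1.39, ATF5 by 1.30, ADM2, which encodes a peptide hormone, by 1.18, AARS, the alanyl-tRNA synthetase, by 1.10, and CTH, of cysteine synthesis, by 1.09. ATF5 was lower with sh1487 without cDNA (23.6 to 12.8 CPM) and higher with it (16.8 to 23.6 CPM). PLCL1 differed by 1.33, RLBP1, a retinoid-binding protein, by 1.24 and the brush-border enzyme MGAM by 1.11, each lower without and higher with cDNA.

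TMSB4X, of the actin-binding thymosin β4, differed by −1.14: it was higher with sh1487 in both pairs, from 1.29 to 10.1 CPM without cDNA and from 1.10 to 3.64 CPM with it. VSIG2 differed by −1.01, higher without and lower with cDNA. Of the 128 named genes, 46 had a called difference between the pairs. Of all genes tested, 20.1% had such a call and 0.405% one of at least 2-fold. Some of the 128 were named for opposite directions in the pairs or after their values were seen. Part of this count was therefore set in advance.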

How the results depend on the processing

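The counts of called genes and of genes shared by both pairs stayed within 1.5 times under every alternative run. Counts at 2-fold depended on how low values are treated. With higher genes first, a pseudocount of 5 gave 231 and 174, and a mean of at least 5 CPM gave 290 and 265, both by construction fewer low genes. In the same order edgeR gave 625 and 764, limma-voom 628 and 762, DESeq2 627 and 763, and a pseudocount of 0.1 gave 609 and 730. These last settings kept all 441 and all 439, and in each the lower genes outnumbered the higher. The near-even counts of the main test thus depend on its pseudocount. Without each library in turn, the called genes numbered 9127 to 9934 without cDNA and 7260 to 8647 with it, the shared ones 2960 to 3413 higher and 3349 to 3770 lower, at 2-fold 432 to 451 and 430 to 447, and the interaction 1946 to 3149.

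Of 128 named genes in each pair, lost calls within a pair were limited to CTNNB1 (7 alternatives) and, without the third sh1487 library with cDNA, KCNAB3. MYC with cDNA, never called in the main test, ranged from −0.038 to 0.29 over libraries left out, the lowest without the third shNT library with cDNA, which had the highest mitochondrial share, 16.5%; without cDNA MYC was called in 4 alternatives (limma-voom, DESeq2, the replicate block and without the first shNT library). Same-numbered libraries had residual correlations of −0.05 to 0.66 and unlike numbers −0.56 to 0.38. These ranges overlap, and they do not settle whether the numbers pair the samples. A replicate block gave more calls: 10466 and 9705 called genes, 3889 shared higher and 4091 shared lower, and 3567 for the interaction. CTNNB1 had log2 differences of −0.18 in the wider fits of 12 and 24 libraries (adjusted p = 0.132 and 0.253). For the named genes with a called difference between pairs, alternatives kept the call in 966 cases and lost it in 178, and 47 of the list counts moved by over 1.5 times against 1453 that did not. Depth limits levels under 3 reads, and 3 libraries a group limit small differences.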
